A study of Homo sapiens with 6 samples.

Results

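The cells described here are cones recognised by their RNA for PDE6H, the inhibitory gamma subunit of the cone phosphodiesterase, in fragments of human retinal organoids. A barcode was first kept with at least 1000 UMIs (unique molecular identifiers, each standing for 1 captured RNA molecule), at least 500 detected genes and a mitochondrially encoded share of no more than 20%. A kept cell was called a cone with at least 3 PDE6H UMIs, more PDE6H than NRL UMIs, at least 1 UMI over GNB3, RXRG, KCNV2, ARR3 and GNGT2, and at most 1 UMI over the glial genes SFRP2, WIF1 and HES5. This gave 3494 cones among 43757 kept cells. The members were thus chosen by their measured UMIs of these 10 genes, so their levels, and the levels of any gene in cones set against other cells, are descriptions without a test. PDE6H of at least 3 held for 9023 kept cells, and the demand for more PDE6H than NRL left 6217. The 5 further cone genes left 6124, and the glial limit left the 3494. Within them 332 cells lay on the threshold with exactly 3 PDE6H UMIs, while 360 cells missed it only by having 2.

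Cells just outside the threshold had somewhat lower median levels of photoreceptor genes than cells just inside. THRB, the thyroid hormone receptor of cones, had a median over the 6 libraries of 391 CPM (a gene's UMIs scaled to the same total of summed UMIs in every library, the usual counts-per-million scale) just inside and 286 CPM just outside. GNAT2, the alpha subunit of cone transducin, had medians of 18.6 and 11.6 CPM, and PDE6H itself had medians of 629 and 502 CPM.

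The organoids were grown from WA09 CRX-tdTomato, an established human embryonic stem cell line with a red fluorescent reporter at CRX, a transcription factor of photoreceptors, and were between day 113 and day 126 of differentiation. They were triturated, and the fragments either were injected under the retina of normal dogs (transplanted) or stayed in the dish (cultured), and both were collected after 3 days for 10x Genomics single-cell RNA sequencing of 3' ends. The experiment was run 3 times, as Sets 1, 2 and 3, each with 1 cultured and 1 transplanted library from 1 batch of organoids, so n = 3 per group. All 6 libraries carry the same reporter line, no unmanipulated or sham-injected fragments were analysed here, and the hosts carry no labelled disease. The comparison asks how cones 3 days after grafting differ from cones of the same batch kept in culture.

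Cones are the photoreceptors of daylight and colour vision. Light on a cone opsin activates the transducin made of GNAT2, GNB3 and GNGT2, which frees the phosphodiesterase PDE6C from PDE6H, and the fall in cyclic GMP closes the channel formed by CNGA3 and CNGB3. Cones and rods share precursors that express OTX2 and CRX, and NRL with NR2E3 sends a precursor to the rod fate, while THRB and RXRG mark the cone fate.

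The 6 libraries gave 1586, 729 and 102 cultured cones in Sets 1, 2 and 3, and 758, 26 and 293 transplanted cones. Set 1 therefore held 67.1% of all cones, and transplanted library 2 was the thinnest, with 290285 UMIs over its 26 cones against 942254 to 7312771 UMIs in the other 5 libraries. A count of 0 in transplanted library 2 allows up to 10.3 CPM (3 UMIs), and intervals and limits of this kind cover counting error only. The median cone held 2637.5, 8499 and 7096 UMIs in the cultured libraries and 3544, 9048 and 11424 in the transplanted ones, so the transplanted cones were deeper in each Set. Their median share of mitochondrially encoded UMIs was 4.27%, 2.65% and 3.42%, against 1.63%, 1.78% and 1.69% in culture (exact permutation p = 0.1, two-sided, the smallest that 3 against 3 samples can give). Cones of 2 libraries shared 1 barcode, and 199 were shared among all kept cells. Transcripts with only a clone as their name took 0.762%, 2.21% and 4.07% of cone UMIs in culture and 0.809%, 2.56% and 2.69% after transplantation. The share was lower in transplanted cones only in Set 3. It was taken on the premise, not tested here, that dog RNA is seldom counted under this class, so it does not measure dog RNA. Levels are compared within a Set, because Set 1 was processed with another version of Cell Ranger than Sets 2 and 3, and the Set and the version cannot be told apart.

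Summed over the cones, the 7 rod markers ran from 299 to 450.0 CPM in culture and from 654 to 754 CPM after transplantation. They were higher in 3 of 3 Sets, with NRL leading, and their part in the results below was not tested. The 6 bipolar markers, led by GRM6, ran from 127 to 287 CPM in culture and from 255 to 358 CPM after transplantation, higher in 3 of 3 Sets. The 7 Müller glia markers, led by VIM, ran from 185 to 1418 and from 152 to 838 CPM, and the 6 amacrine markers from 35.7 to 89.2 and from 23.8 to 42.6 CPM. Myeloid markers reached 3.17 CPM and hemoglobins 1.36 CPM at most, with C1QB and HBB at 0 in all 6 libraries. None of the tested markers of these other classes passed the test in cones.

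The label fitted the cells in part. Against rods of the same libraries (kept cells with at least 2 NRL UMIs, NRL above PDE6H and the same glial limit; 7515 cells), the cones had more of the cone genes that the rule did not use. GNAT2 ran at 34.9, 39.4 and 21.2 CPM in the cultured cones of Sets 1, 2 and 3 and at 36.4, 51.7 and 45.05 CPM in the transplanted cones, 2.29 to 4.22 times its level in rods. THRB stood 2.04 to 2.72 times above rods, and PDE6C, the catalytic subunit of the cone phosphodiesterase, 2.70 to 8.38 times. ISL2, a LIM homeodomain factor, lay 2.12 to 4.14 times above rods in 6 of 6 libraries. CNGB3 and CNGA3, the subunits of the cone channel, were higher than in rods in 6 of 6 libraries, by 2.47 to 10.7 and 1.45 to 2.27 times.

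Few cones held a UMI of a cone opsin. OPN1SW, the short-wavelength opsin, was found in 0, 1.23 and 2.94% of cultured cones and in 0, 0 and 4.10% of transplanted cones, against at most 1.94% of amacrine-like cells, which should lack it (kept cells with at least 2 UMIs of TFAP2A and TFAP2B and none of CRX or NRL). Those cells had median depths of 2148.5, 4268 and 2375 UMIs in culture and 1932, 7262.5 and 6947 after transplantation. The cones lay above the amacrine-like cells in cultured libraries 2 (0.624% of amacrine-like cells) and 3 (0%) and in transplanted library 3 (1.94%). With cells thinned to 1000 UMIs the highest share was 0.341% in cones (1 of 293) and 0.971% in amacrine-like cells (1 of 103). At 2000 UMIs cultured library 3 had 2.0% of cones (2 of 100) and 0% of amacrine-like cells (0 of 97). Such counts are too few to set the classes apart. OPN1LW had no UMI in any cone, and the nearly identical OPN1MW none either, though reads of such copies may be split or dropped in counting. The 0 of 1586 cones in cultured library 1 allow a share of up to 0.189%, and the 0 of 26 in transplanted library 2 one of up to 11.5%. These limits are for cones with a captured UMI, not for cones that express the gene.

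Rod genes were lower in the cones. NR2E3, the nuclear receptor that acts beside NRL, stood at 21.4, 20.1 and 36.1 CPM in cultured cones and 31.2, 72.3 and 65.6 CPM in transplanted cones, and rods held 5.84 to 10.7 times as much. ROM1, a disc rim protein, was 3.81 to 8.92 times and GNAT1, the rod transducin alpha subunit, 3.199 to 7.33 times higher in rods where cones had any. Factors shared by both photoreceptors differed little: CRX was 0.993 to 1.38 times and RCVRN, the calcium sensor recoverin, 0.631 to 1.11 times the rod level, and OTX2 was 0.641 to 0.843 times the rod level in 6 of 6 libraries. Of 2307 genes at 50 CPM or more in 1 of the 2 classes in every library, 18 (0.78%) were at least 2-fold above rods in all 6 libraries and 7 (0.303%) at least 2-fold below.

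The genes farthest above rods in every library, beside PDE6H and RXRG, included GUCA1B, an activator of retinal guanylate cyclase (2.19 to 4.95 times), SLC8A1, a sodium-calcium exchanger (2.30 to 3.32 times), and SH3GL2, endophilin A1 of synaptic vesicle recycling (2.42 to 3.97 times). CHGA, chromogranin A of dense-core vesicles (2.07 to 3.41 times), NPTX1, a neuronal pentraxin (2.15 to 3.51 times), and the DNA repair factor XRCC4 (2.40 to 3.29 times) stood there too. SPECC1, VXN, B3GAT2 and LGALSL completed the 12. Farthest below rods, beside NRL, NR2E3 and ROM1, were PTPRZ1, a receptor phosphatase (2.43 to 6.90 times higher in rods), MYO9A, SYTL4, PRUNE2, ID1, WEE1, SAMD11, GCLM and BTG2.

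**Figure D1:**
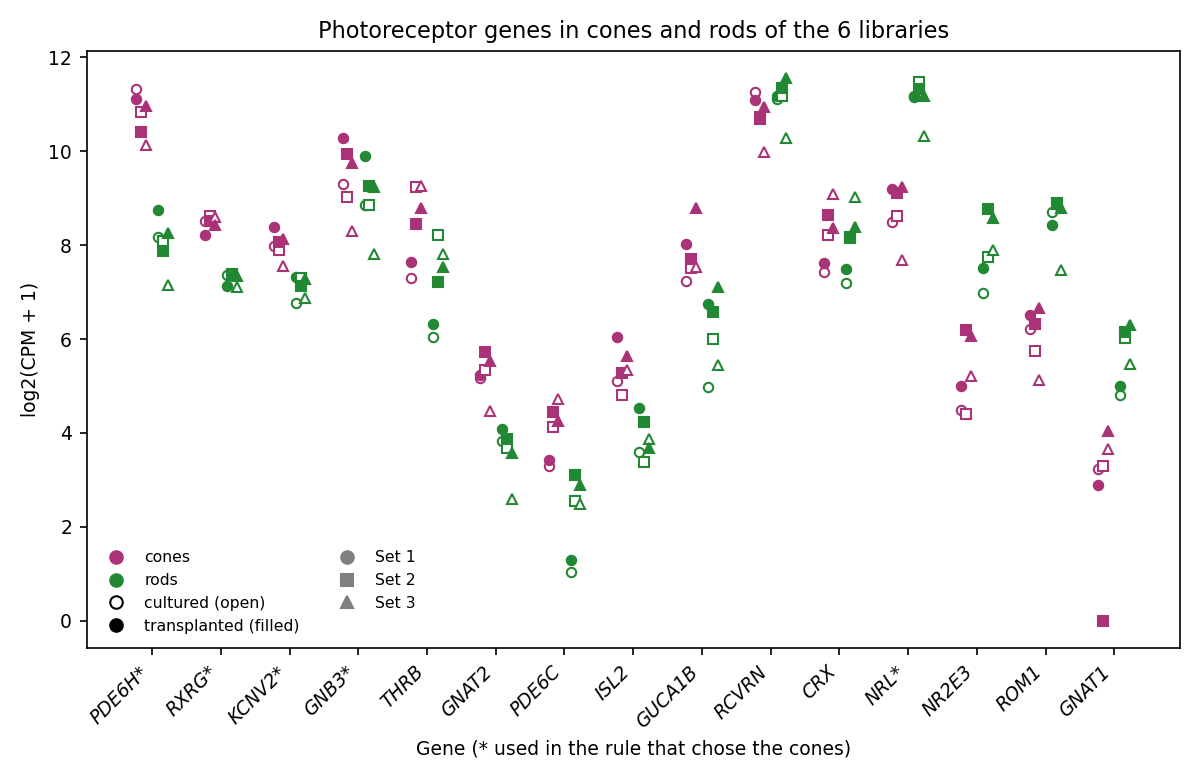
Levels of 15 photoreceptor genes as log2(CPM + 1) in the summed cones and rods of each of the 6 libraries; colour gives the class, open and filled points the treatment, and the shape the Set. GNAT2, THRB, PDE6C and ISL2 lie above rods in 6 of 6 libraries and NR2E3, ROM1 and GNAT1 below, while CRX and RCVRN overlap between the classes.

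The share of cones did not differ between cultured and transplanted cells by more than the spread between Sets. The share was 8.86%, 6.84% and 5.41% of kept cells in cultured libraries 1, 2 and 3, and 9.71%, 3.75% and 6.08% in the transplanted libraries. It was higher after transplantation in Sets 1 and 3 and lower in Set 2, and the groups overlapped. The means were 7.04% ± 1.73 and 6.51% ± 3.003 (SD, n = 3), a difference of -0.527 percentage points (exact permutation p = 0.9, two-sided). The exact 95% binomial interval was 2.46 to 5.44% in transplanted library 2 and 8.45 to 9.29% in cultured library 1. With every kept cell thinned to 1000 UMIs before the rule was applied, the shares were 5.07%, 2.22% and 0.743% in culture and 4.597%, 0.865% and 2.12% after transplantation. At that fixed depth the share was lower in each library than without thinning, and it was higher after transplantation in Set 3 alone.

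Set beside rods, cones took a slightly smaller part of the photoreceptors after transplantation in each Set. Cones were 48.3%, 20.4% and 19.2% of cones plus rods in culture and 41.9%, 14.9% and 17.9% after transplantation. The difference of -4.42 points had the same sign in 3 of 3 Sets but was smaller than the spread between Sets (exact permutation p = 0.5). That test did not keep the pairing by Set, so its p-value takes in the spread between Sets. Both classes were chosen on raw PDE6H and NRL UMIs, and the share of cones among them was not taken at a fixed depth. Cones without any NRL UMI were 56.4%, 27.2% and 49.0% of cultured and 26.1%, 26.9% and 15.4% of transplanted cones. The share was lower in 3 of 3 transplanted libraries, with nearly equal values in Set 2, and NRL was part of the rule. It also depends on depth, the transplanted cones were deeper in each Set, and no value at a fixed depth was taken. Among amacrine-like cells, 1.99 to 8.93% held a PDE6H UMI in culture and 0 to 12.6% after transplantation, and at most 5.56% held 3 or more.

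**Figure D2:**
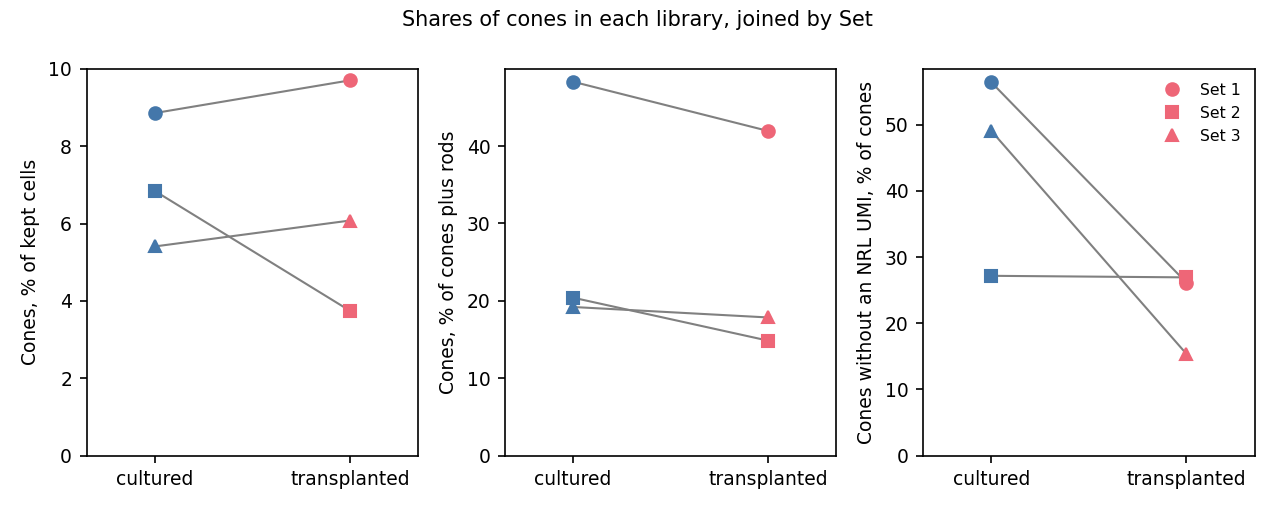
Share of cones among kept cells (left), among cones plus rods (middle) and share of cones without an NRL UMI (right), in percent; each point is 1 library and a line joins the cultured and transplanted library of a Set. The left panel crosses, the middle panel falls in each Set, and the right panel falls from 56.4 to 26.1% in Set 1 and from 49.0 to 15.4% in Set 3. All shares are unthinned, and the transplanted cones were deeper in each Set.

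Transplantation was then tested on the cones alone. Raw UMIs were summed over the cones of each library, and cultured and transplanted sums were compared with edgeR's quasi-likelihood test, blocked by Set. On simulated counts the test found 67% of the 4-fold and 2% of the 2-fold changes. A gene without a call is therefore not shown to be unchanged. Of 15988 genes tested, 68 (0.425%) were called at an adjusted p under 0.05, 35 higher (0.219%) and 33 lower (0.206%) in transplanted cones, and 2246 had an unadjusted p under 0.05 (6.22% higher and 7.82% lower). GNGT2, the 1 gene of the selection rule called, is among the 68, and its call is not read as a result. The median log2 change over all genes was -0.055, and 8690 of the 15988 were negative, the background for the gene lists below. Those lists were chosen with earlier results of these data known, so counts of their called members are descriptions. The largest called changes among genes of at least 30 CPM were rises of TMEM176B, TMEM176A, COL16A1 and SOCS3 and falls of CALB1, SLC2A13, SCD and NQO1. Among the 12 named rises and 12 named falls, the CPM of the 2 groups did not overlap for 17 of 24, where 9.58% of all genes tested had groups that did not overlap. The 24 were picked from the same values for large changes of the same sign, so a high share is built into the choice.

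The number of calls changed with the block and with the Sets in the fit. Without the block edgeR called 0 genes (455 of 14852 at an unadjusted p under 0.05), and leaving out Set 1, 2 or 3 gave 0, 113 and 3 calls, each with 4 libraries left. With every cone thinned to 1000 UMIs 0 genes were called, and 24 without cones that hold 2 or more UMIs of another class's markers, the mixed cones, a step that leaves 7 cones in transplanted library 2. Without the mixed cones 7 of the 23 named genes measured were still called, TMEM176B, TMEM176A, PRUNE2, CALB1, RAI14, MAP2 and DPYSL3. ACAT2, HMGCS1, SCD, TFRC, NQO1, VTN, HLA-B and SOCS3 were among those no longer called. Transplanted library 2 counts 26 cells, so its value for a low gene rests on a few UMIs.

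TMEM176A and TMEM176B, neighbouring genes for small membrane proteins of endosomes, rose most. TMEM176B (ENSG00000106565; GRCh38 chromosome 7, 150791285 to 150801360) stood at 131, 60.3 and 11.7 CPM in the cultured cones of Sets 1, 2 and 3 and at 576, 296 and 304 CPM in the transplanted cones. Every transplanted library lay above every cultured one, and the log2 fold change was 2.84 ± 0.48 (SE; edgeR adjusted p = 0.0366). TMEM176A (chromosome 7, 150800403 to 150805120, overlapping its neighbour) went from 101, 38.7 and 8.49 CPM in culture to 482, 141 and 179 CPM after transplantation (2.64 ± 0.45, edgeR adjusted p = 0.0366), again with no overlap. With each cone thinned to 1000 UMIs, 12.5%, 5.76% and 0.980% of cultured cones and 42.9%, 38.5% and 28.0% of transplanted cones held a TMEM176B UMI, with amacrine-like cells at no more than 5.56%. The difference of 30.01 points was higher in 3 of 3 Sets (exact permutation p = 0.1, the smallest possible; 0.5 adjusted over 10 genes). The share counts TMEM176B UMIs of the same cones as the edgeR test and is not separate support. Unthinned, the means were 22.9% and 74.1%. Unthinned amacrine-like cells held a TMEM176B UMI in 3.57%, 2.03% and 0.662% in culture and 33.3%, 13.6% and 4.85% after transplantation. Their share was thus also higher in 3 of 3 Sets, and the 33.3% is 6 of 18 cells.

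SOCS3 and VTN, from a list of genes tied to STAT3 signalling in the cytokine and acute-phase response, rose. Of 13 tested members of that list, 2 rose and 0 fell, beside 0.219% and 0.206% of all genes. The list's median log2 change was 0.35. SOCS3, which restrains JAK and STAT signalling, was at 15.2, 5.47 and 3.18 CPM in culture and 41.2, 51.7 and 18.3 CPM after transplantation (2.21 ± 0.39, edgeR adjusted p = 0.0443). VTN, the plasma and matrix protein vitronectin, went from 32.9, 24.2 and 16.98 CPM in culture to 127, 65.5 and 123 CPM after transplantation (2.07 ± 0.32, edgeR adjusted p = 0.0294). The 2 groups did not overlap for either gene. Without the mixed cones the change of SOCS3 was 1.23. CEBPD, a transcription factor of the acute phase, had values of 85.97, 49.1 and 21.2 CPM in culture and 219, 138 and 139 CPM after transplantation and an adjusted p of 0.0518, just short of the threshold.

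HLA-B, of class I antigen presentation, and the immediate early genes JUN, JUNB and BTG2 rose. HLA-B, a heavy chain from a family of near-identical genes whose reads can be shared out unevenly, rose from 24.6, 19.1 and 4.25 CPM in culture to 61.4, 75.8 and 29.7 CPM after transplantation (1.84 ± 0.33, edgeR adjusted p = 0.0443). It was the only 1 of 9 tested class I genes called, beside 0.425% of all genes. The median of the list was 0.97, with changes of 1.67 ± 0.32 for HLA-C (edgeR adjusted p = 0.0532) and 0.99 ± 0.33 for B2M, the shared light chain (edgeR adjusted p = 0.207). Of 22 tested immediate early genes 3 rose and 0 fell, beside 0.219% and 0.206% of all genes, with a median of 1.004. JUN, a subunit of the AP-1 factor, stood at 180.0, 167 and 153 CPM in culture and 633, 551 and 458 CPM after transplantation, and every transplanted library was above every cultured one (1.72 ± 0.28, edgeR adjusted p = 0.032). JUNB and the growth brake BTG2 rose by 1.64 and 1.67 (adjusted p = 0.0477 and 0.0364), and for both genes cultured library 1 lay above transplanted library 3.

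Other rises named by the rule fell outside these lists. COL16A1, a collagen chain, stood at 11.4, 3.56 and 5.31 CPM in culture and 40.3, 48.2 and 21.7 CPM after transplantation (2.44 ± 0.40, edgeR adjusted p = 0.033), with no overlap. LHX3, a LIM homeodomain factor, rose from 12.6, 11.1 and 10.6 CPM in culture to 36.7, 58.6 and 33.7 CPM after transplantation (1.84 ± 0.29, edgeR adjusted p = 0.0294), with no overlap, and its change was 0.96 both with thinned cones and without the mixed cones. C11orf96 rose by 1.83 without overlap. PRUNE2 and ATP6V0D2, a subunit of the proton pump of acidic vesicles, rose by 1.83 and 2.06 in 3 of 3 Sets, but their levels in Set 1 were several-fold under those of Sets 2 and 3, so the groups overlapped. MTRNR2L12, a nuclear copy of a mitochondrial ribosomal RNA gene whose reads may belong to the original, and the long noncoding RNA LINC00276 rose by 2.11 and 1.78, and both were at most 2.75 CPM in Set 1.

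**Figure D3:**
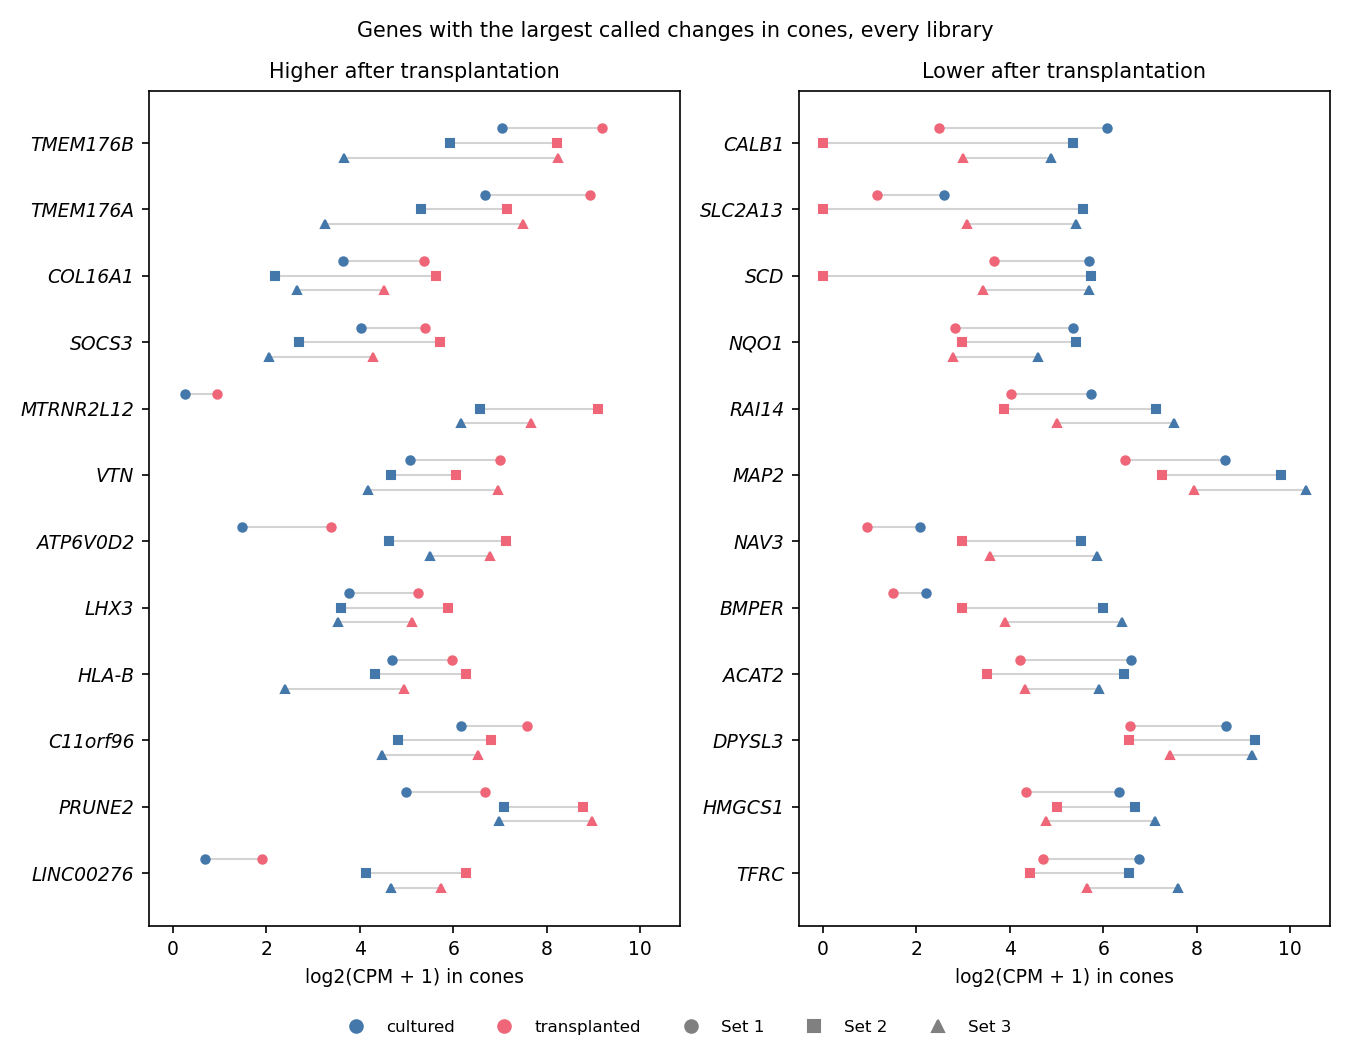
The 12 named rises (left) and 12 named falls (right) in cones, as log2(CPM + 1) in each library; blue is cultured, red is transplanted, the shape gives the Set and a grey line joins the 2 libraries of a Set. The genes were selected to have the same sign in all 3 Sets. CALB1, SLC2A13 and SCD had no UMI in transplanted library 2, where 0 allows up to 10.3 CPM.

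ACAT2, HMGCS1 and SCD, enzymes of sterol and fatty acid synthesis, fell. The pathway builds sterols from acetyl-CoA through mevalonate, and its genes are switched on together by SREBP factors when a cell is short of sterol. Of 21 tested cholesterol synthesis genes 0 rose and 2 fell, beside 0.219% and 0.206% of all genes, and 18 of 21 had a negative log2 change. The list was chosen with earlier results of these data known, so these counts are descriptions. The list's median was -0.79, and by Set it was -0.89, -0.64 and -0.44. ACAT2, which makes acetoacetyl-CoA, stood at 95.2, 86.2 and 59.4 CPM in the cultured cones and 17.7, 10.3 and 19.02 CPM in the transplanted cones (-2.19 ± 0.32, edgeR adjusted p = 0.0269). HMGCS1, which makes HMG-CoA, was at 79.6, 101 and 136 CPM in culture and 19.2, 31.00 and 26.5 CPM after transplantation (-2.05 ± 0.25, edgeR adjusted p = 0.0213). Both genes were lower in every transplanted than in every cultured library.

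FDFT1, the squalene synthase, had a change in that direction without a call, -1.37 ± 0.26 (adjusted p = 0.0518). Of the 19 tested fatty acid and SREBP genes, 2 fell, SCD among them, and 0 rose, beside 0.206% and 0.219% of all genes. The list's median was -0.44. SCD, the desaturase that makes oleate, stood at 50.7, 52.4 and 50.9 CPM in culture and at 11.6, 0 and 9.73 CPM after transplantation (-2.49 ± 0.39, edgeR adjusted p = 0.0294). ABCA1, an exporter of cholesterol, had a change of 1.24 ± 0.23 in the opposite direction (adjusted p = 0.0518).

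The upstream sequences of HMGCS1 and SCD are shown because both fell and both belong to this group, and 32 of the 41 genes of the 2 lists have an entry in the RefSeq promoter table of GRCh38.p14. Capitals mark CCAAT, the core recognised by NF-Y, and CACNCCAC, a sterol regulatory element core, each searched on both strands, and the marked matches do not overlap. The first stretch is chr5:43313513-43313662 on the minus strand and the second chr10:100346983-100347126 on the plus strand, each cut where the annotated first exon begins, except for the last 3 bases of SCD.
HMGCS1: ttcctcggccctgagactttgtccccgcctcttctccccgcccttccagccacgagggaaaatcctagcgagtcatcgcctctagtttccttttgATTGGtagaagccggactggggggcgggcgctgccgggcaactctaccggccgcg
SCD: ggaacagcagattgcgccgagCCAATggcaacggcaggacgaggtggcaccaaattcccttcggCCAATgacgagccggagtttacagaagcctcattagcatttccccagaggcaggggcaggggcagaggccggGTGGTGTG
In the SCD stretch CCAAT starts 229 and 186 bases before the RefSeq start, and CACNCCAC lies on the opposite strand 114 bases before it. In HMGCS1 the marked ATTGG is CCAAT on the opposite strand, 155 bases before the start, and CACNCCAC is not found in this window. Among all RefSeq genes with an entry, 37.0% had CCAAT and 5.89% had CACNCCAC in the 250 bases before a start. Among the 32 matched list genes 23 had CCAAT and 7 had CACNCCAC. A match describes letters and not a bound site.

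TFRC, of iron import, and NQO1, a target of the oxidative stress factor NRF2, fell as well. TFRC, the transferrin receptor, stood at 107, 92.6 and 194 CPM in culture and 25.1, 20.7 and 48.9 CPM after transplantation (-2.04 ± 0.25, edgeR adjusted p = 0.0213). It was the only 1 of 11 tested iron genes called, beside 0.425% of all genes. FTH1, the ferritin heavy chain, had values of 3745, 3520.0 and 1071 CPM in culture and 2416, 1206 and 1866 CPM after transplantation. Its change was -0.46 ± 0.54 (edgeR adjusted p = 0.737). NQO1, a quinone reductase, fell from 40.1, 41.98 and 23.3 CPM in culture to 6.11, 6.89 and 5.89 CPM after transplantation (-2.38 ± 0.33, edgeR adjusted p = 0.0247). The transplanted values of both called genes lay below all cultured ones. HMOX1, the haem oxygenase, was at 13.2, 6.02 and 2.12 CPM in culture and 0, 0 and 0.453 CPM after transplantation, with an adjusted p of 0.0812.

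The list of neurite cytoskeleton genes had the most falling members of the 19 lists. Of 32 tested members of the axon and dendrite list 4 fell and 0 rose, beside 0.206% and 0.219% of all genes. This list was chosen with earlier results of these data known, so the counts describe its members and do not test for an excess. Of the 32, 25 had a negative change, and the list's median was -0.49 (by Set -0.42, -0.68 and -0.52). MAP2, which bundles dendritic microtubules, stood at 387, 895 and 1286 CPM in culture and at 87.4, 152 and 244 CPM after transplantation (-2.34 ± 0.31, edgeR adjusted p = 0.0213). DPYSL3, a collapsin response mediator of growing neurites, went from 392, 603 and 579 CPM in culture to 94.1, 93.01 and 170.5 CPM after transplantation (-2.12 ± 0.32, edgeR adjusted p = 0.0269). RAI14, an actin-binding protein, fell from 52.3, 138 and 181 CPM in culture to 15.3, 13.8 and 31.01 CPM after transplantation (-2.36 ± 0.29, edgeR adjusted p = 0.0213), and MYO10, the motor of filopodia, by 1.85 on the log2 scale. For MAP2, DPYSL3 and RAI14 no transplanted value reached a cultured one. With each cone thinned to 1000 UMIs, a DPYSL3 UMI was found in 32.3%, 42.8% and 46.1% of cultured cones and in 8.97%, 7.69% and 15.4% of transplanted cones, lower in 3 of 3 Sets (exact permutation p = 0.1, the smallest possible; 0.5 adjusted over 10 genes). This share, too, counts UMIs of the same cones as the edgeR test and is not separate support. Amacrine-like cells, which are neurons that may express DPYSL3, held it in 0 to 18.2%. Unthinned, the means were 79.7% and 52.5%, with amacrine-like cells at up to 72.7%.

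The remaining named falls were CALB1, SLC2A13, NAV3 and BMPER. CALB1, the calcium buffer calbindin, stood at 66.9, 39.7 and 28.7 CPM in culture and 4.58, 0 and 7.02 CPM after transplantation (-3.10 ± 0.50, edgeR adjusted p = 0.0294), with no overlap. SLC2A13, a myo-inositol transporter, had values of 5.01, 46.5 and 41.4 CPM in culture and 1.22, 0 and 7.47 CPM after transplantation (-2.58 ± 0.46, edgeR adjusted p = 0.0452). NAV3, a microtubule-associated navigator, and BMPER, a secreted BMP modulator, fell by 2.23 and 2.21 on the log2 scale. The change of NAV3 was -0.084 with thinned cones and -1.34 without the mixed cones. In Set 1 the cultured level of SLC2A13, NAV3 and BMPER was at most 5.01 CPM, under the cultured level of the other Sets, and the groups overlapped for these 3 genes.

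RGS9 was the 1 cone phototransduction gene outside the selection rule that passed the test. Of the 17 tested members outside the selection rule 0 rose and 1 fell, beside 0.219% and 0.206% of all genes. Their median was 0.13. RGS9, which shuts transducin off, stood at 22.6, 32.7 and 46.7 CPM in culture and 6.42, 6.89 and 14.3 CPM after transplantation, without overlap (-1.79 ± 0.30, edgeR adjusted p = 0.0364). GNGT2, the gamma subunit of cone transducin and part of the rule, was at 479, 384 and 769 CPM in culture and 133, 127 and 170.0 CPM after transplantation. GNB3, the beta subunit and also part of the rule, was at 631, 518 and 313 CPM in culture and 1243, 982 and 857 CPM after transplantation. Both sets of values are descriptions. AIPL1, the chaperone that folds PDE6, had values of 358, 439.9 and 317 CPM in culture and 863, 851 and 749 CPM after transplantation that did not overlap (1.17 ± 0.31), with an adjusted p of 0.129. GUCA1B had a change of 0.76 ± 0.31 (adjusted p = 0.295), GNAT2 one of 0.49 ± 0.30 (adjusted p = 0.486) and PDE6C one of -0.027 ± 0.30 (adjusted p = 0.978). Levels of PDE6H itself were 2565, 1838 and 1131 CPM in culture and 2205, 1357 and 1996 CPM after transplantation.

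SALL1 was the 1 photoreceptor fate factor that passed the test. CRX stood at 171, 295 and 547 CPM in cultured cones and 195, 399.6 and 330.1 CPM in transplanted cones, a log2 change of -0.021 ± 0.28 (edgeR adjusted p = 0.982). Of the 24 tested factors outside the rule 0 rose and 1 fell, beside 0.219% and 0.206% of all genes. Their median was -0.12. SALL1, a zinc finger repressor, was at 29.5, 49.8 and 56.2 CPM in culture and 9.78, 13.8 and 14.3 CPM after transplantation, without overlap (-1.76 ± 0.27, edgeR adjusted p = 0.0269). THRB had a change of -0.29 ± 0.30 (adjusted p = 0.706) and NR2E3 one of 1.06 ± 0.29 (adjusted p = 0.146), beside NRL, a gene of the rule, at 362, 392 and 204 CPM in culture and 584, 555 and 601 CPM after transplantation. MEF2C had a change of -0.99 ± 0.24 (adjusted p = 0.108).

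Outer segment, synapse and retinoid genes gave 1 call in all. PCARE, an actin regulator of new discs, rose from 11.6, 9.299 and 10.6 CPM in culture to 39.4, 37.9 and 23.8 CPM after transplantation without overlap (1.66 ± 0.29, edgeR adjusted p = 0.0402). It was the 1 riser among 22 tested outer segment and cilium genes, beside 0.219% of all genes, and the list's median was 0.16. PRPH2, the disc rim peripherin, had values of 9.02, 26.8 and 74.3 CPM in culture and 35.1, 75.8 and 96.2 CPM after transplantation (adjusted p = 0.0842). Of 30 tested ribbon synapse genes none was called by edgeR (5 at an unadjusted p under 0.05), and the median was 0.045. At that unadjusted level 6.22% of all genes were higher and 7.82% lower. Of 14 visual cycle genes none was called either (5 unadjusted), with CRABP1, a retinoic acid carrier, at 1067, 456 and 129 CPM in culture and 280.5, 55.1 and 90.1 CPM after transplantation (adjusted p = 0.134). Among the 9 tested rod phototransduction genes edgeR called 0 (3 higher and 2 lower unadjusted). The median was -0.26 with the block and 0.33 without it, and by Set it was -0.39, 0.93 and 0.0080. CNGB1 and CNGA1, subunits of the rod channel, had changes of 1.38 ± 0.29 (adjusted p = 0.065) and 1.78 ± 0.60 (adjusted p = 0.212), and PDE6B, a rod phosphodiesterase subunit, one of 0.85 ± 0.26 (adjusted p = 0.189). GNB1, the transducin beta subunit of rods, had one of -0.76 ± 0.25 (adjusted p = 0.203).

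The lists for stress, death, lysosome and energy genes held 3 calls in all, HSPA1A, BBC3 and ATP6V0D2. Over all genes tested 0.425% were called, and 6.22% were higher and 7.82% lower at an unadjusted p under 0.05. All 13 mitochondrially encoded genes had a positive change, with a median of 0.76 (by Set 1.08, 0.12 and 0.74), but none was called (5 unadjusted). These genes also set the mitochondrial share that was higher in the transplanted cones of 3 of 3 Sets. The 20 unfolded protein and integrated stress response genes had a median of 0.63 with 0 called by edgeR and 9 at an unadjusted p under 0.05, all 9 positive, beside 6.22% of all genes higher at that level. DDIT3, the factor CHOP, had values of 223, 157 and 117 CPM in culture and 576, 307 and 467 CPM after transplantation (adjusted p = 0.0774), and DNAJB9, a chaperone of the endoplasmic reticulum, 16.4, 23.1 and 4.25 CPM in culture and 51.6, 55.1 and 27.6 CPM after transplantation (adjusted p = 0.0521), neither with an overlap. HSPA1A, an inducible heat shock protein with the near-identical copy HSPA1B, rose from 8.22, 3.56 and 6.37 CPM in culture to 39.7, 17.2 and 17.4 CPM after transplantation (2.03 ± 0.33, edgeR adjusted p = 0.0329) and was the only call among 13 chaperones. BBC3, the death-promoting PUMA, was at 24.05, 19.3 and 15.9 CPM in culture and 54.4, 58.6 and 53.4 CPM after transplantation (1.48 ± 0.27, edgeR adjusted p = 0.0483), the only call among 13 p53 and death genes, whose median was -0.37. Of 29 glycolysis and hypoxia genes edgeR called 0 (11 unadjusted, 8 of them negative), with a median of -0.36, and of 22 vacuolar ATPase and lysosome genes ATP6V0D2 was the 1 call, with a median of -0.22.

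**Figure D4:**
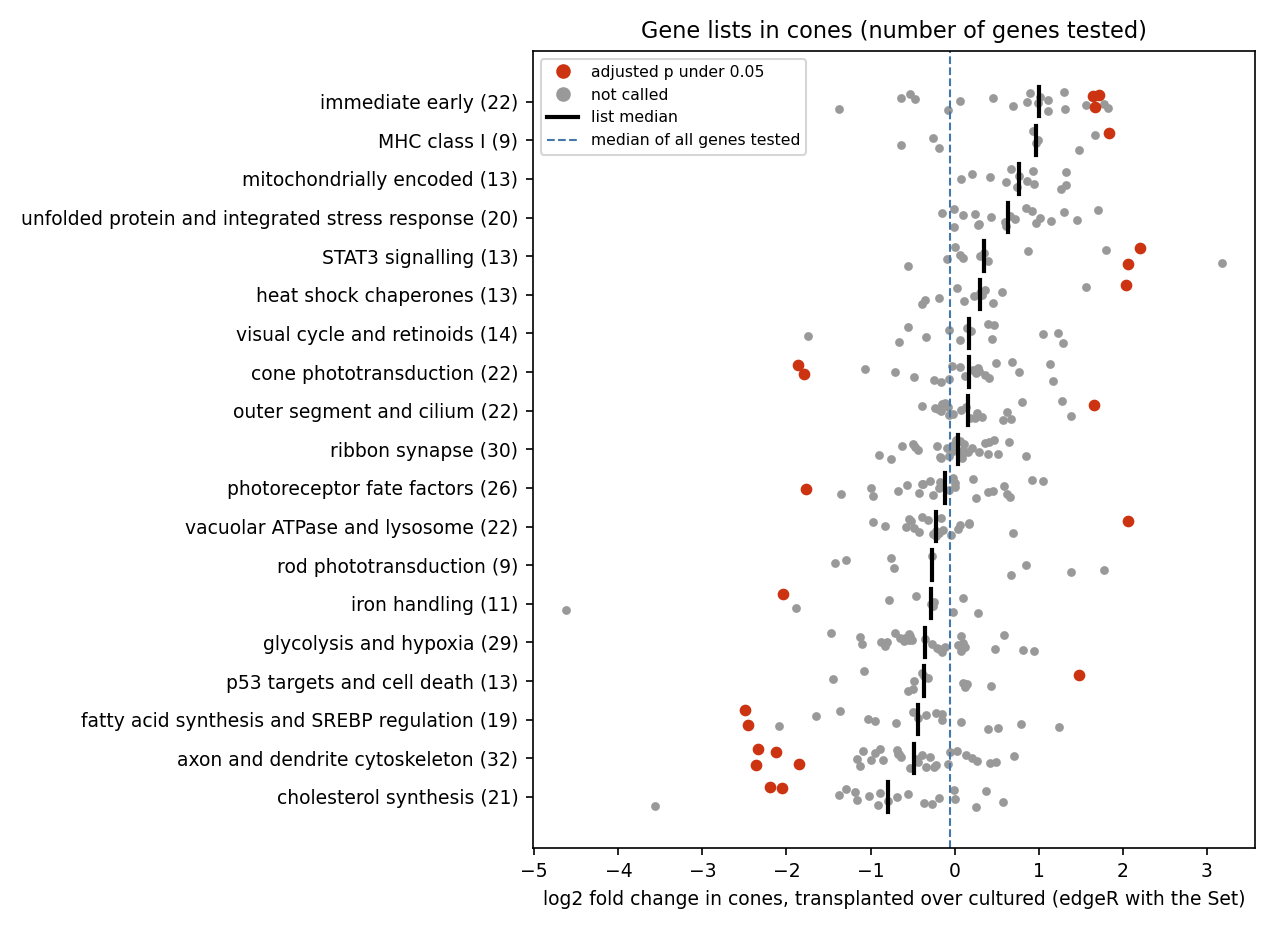
Log2 fold change in cones (transplanted over cultured, edgeR with the Set) of every tested member of the 19 gene lists; red points were called at an adjusted p under 0.05, grey points were not, the black bar is the list's median and the dashed line the median of all genes tested (-0.055). The cone phototransduction and fate factor lists are drawn with the 7 genes of the selection rule that they hold. Cholesterol synthesis has the lowest median (-0.79) and the immediate early list the highest (1.004).

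Rods of the same libraries gave more calls, from more cells. In rods edgeR called 402 of 16370 genes (2.46%), 149 higher (0.91%) and 253 lower (1.55%). Cones and rods come from the same cultures and grafts, so the 2 sets of calls are not independent. Of the 68 genes called in cones, all tested in rods, 47 were also called in rods and 65 had the same sign there. Of the 24 named genes 17 were also called in rods and 23 had the same sign there. Most of the changes called in cones were thus shared with rods. The values of both classes are given side by side only for some lists and genes. Cholesterol synthesis had a median change of -0.79 in cones and -0.21 in rods, the cytoskeleton list -0.49 and -0.42, the immediate early list 1.004 and 0.70, and class I genes 0.97 and 0.62. Whether a response differs between the classes was tested on the interaction of class and treatment. On simulated counts that interaction test found 51% of the 4-fold and 0% of the 2-fold differences, so a missing call does not show an equal response. In the data the interaction test called 25 of 16563 genes (0.151%), 13 with a more positive (0.0785%) and 12 with a more negative (0.0725%) change in cones. Of the 24 named genes 4 were called there, MAP2, ACAT2, HMGCS1 and LINC00276, and of the 21 cholesterol genes 2.

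The falls of MAP2, ACAT2 and HMGCS1 were deeper in cones than in rods. MAP2 fell by 2.34 in cones and had a change of -1.06 ± 0.25 in rods, where its values were 202, 505 and 607 CPM in culture and 81.3, 258 and 273 CPM after transplantation. The difference was -1.20 ± 0.15 on the log2 scale (edgeR adjusted p = 0.000579). ACAT2 differed by -1.29 ± 0.18 (adjusted p = 0.00124), from rod values of 52.6, 51.9 and 31.97 CPM in culture and 25.1, 20.4 and 24.3 CPM after transplantation, and HMGCS1, outside the rule for this comparison, by -0.99 ± 0.17 (adjusted p = 0.0109). For both enzymes cultured cones were above cultured rods in 3 of 3 Sets. HMGCS1 had rod values of 43.1, 54.98 and 68.1 CPM in culture and 19.3, 24.7 and 28.3 CPM after transplantation. MCF2L2, a guanine nucleotide exchange factor, differed by -1.11 ± 0.22 (adjusted p = 0.0376). NPSR1-AS1, an antisense transcript of NPSR1 whose counting by strand is not given in the sources used here and which was at 0 in both cone libraries of Set 1, stood at 0, 46.9 and 107 CPM in cultured and 0, 13.8 and 15.2 CPM in transplanted cones, and differed from rods by -2.63 ± 0.30 (adjusted p = 9.77e-05). EYA2, a transcriptional coactivator and phosphatase, had 20.4, 421 and 333 CPM in culture and 21.4, 320.4 and 195 CPM after transplantation in cones against 10.1, 140.1 and 90.9 CPM in culture and 21.9, 203 and 126 CPM after transplantation in rods, a difference of -1.16 ± 0.18 (adjusted p = 0.00799).

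Other genes moved up in cones relative to rods. EIF2AK3, the stress kinase PERK, stood at 8.82, 57.3 and 60.5 CPM in cultured and 15.3, 134 and 95.3 CPM in transplanted cones, and at 16.2, 127 and 168 CPM in culture and 18.7, 83.3 and 101 CPM after transplantation in rods. The difference in response was 1.14 ± 0.19 (edgeR adjusted p = 0.0073), although neither change was called within its class. LHFPL6, a small membrane protein, differed by 1.18 ± 0.20 (adjusted p = 0.0101), higher in the transplanted cones and lower in the transplanted rods of 3 of 3 Sets. LMO1, a LIM-only cofactor, and ABLIM1, an actin-binding LIM protein, differed by 0.93 ± 0.18 and 0.86 ± 0.16 (adjusted p = 0.0226 and 0.0227). GEM, a small GTPase that restrains calcium channels, differed by 0.94 ± 0.19 (adjusted p = 0.0408), with cone values of 31.5, 40.3 and 31.8 CPM in culture and 26.3, 37.9 and 31.5 CPM after transplantation against 33.7, 43.1 and 28.3 CPM in culture and 14.7, 17.9 and 16.1 CPM after transplantation in rods. GEM had a change of -1.003 ± 0.23 in rods (adjusted p = 0.0493) and of -0.11 ± 0.26 in cones (adjusted p = 0.879). Without Set 3 the interaction test called 1 gene and none of these 25.

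**Figure D5:**
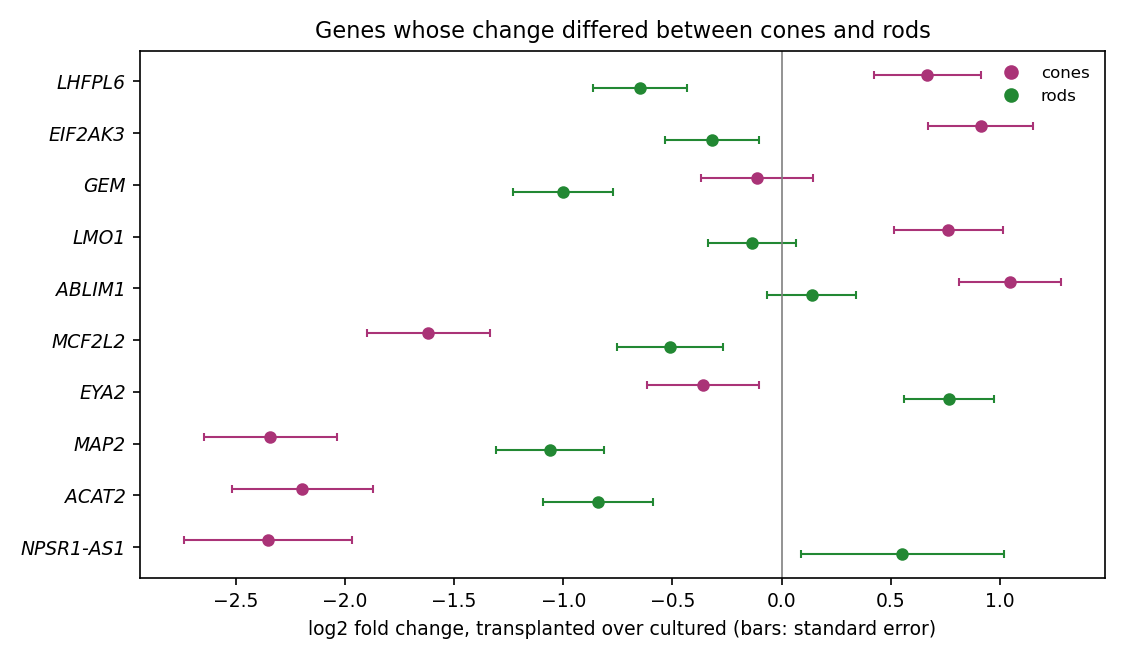
Log2 fold change after transplantation of the 10 genes with the largest called differences between cones (purple) and rods (green), ordered by that difference; bars are standard errors of the edgeR fits. LHFPL6, EIF2AK3 and LMO1 lie above zero in cones and below zero in rods, and NPSR1-AS1 and EYA2 the reverse, while MAP2, ACAT2 and MCF2L2 are below zero in both and lower in cones.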

How the data were processed

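The deposited matrices hold raw UMI counts per gene and barcode for 6 libraries, and per the file headers the authors ran Cell Ranger 6.0.2 for Set 1 and 7.1.0 for Sets 2 and 3 on GRCh38. The treatment of intronic reads is not given in the sources used here. The members, gene lists and tests were chosen with earlier results of these data known. No doublet caller was run. Cones with at least 2 UMIs of another class's markers were left out in an alternative. They were 24.7%, 70.1% and 70.6% of the cultured cones of Sets 1, 2 and 3 and 42.9%, 73.1% and 80.9% of the transplanted cones. The share was higher after transplantation in each Set, and its part in the results was not tested. It counts raw UMIs, so it depends on depth, and the transplanted cones were also deeper in each Set.

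UMIs were summed per library and class. Genes passing filterByExpr were fitted in edgeR 4.0.16 (R 4.3.3, limma 3.58.1) with TMM factors and the Set as a block, and p-values were adjusted by Benjamini-Hochberg over all genes tested. The deviations of same-Set cones had correlations of 0.854, 0.312 and 0.620, and those of other pairs ran from -0.7395 to 0.5088. The value of 0.312 lay below the highest of the other pairs, so the correlations did not set apart the pair of every Set. The series' design text places both libraries of a Set in 1 batch. The bias-adjusted quasi-likelihood fit was chosen over the legacy fit after both counts and a test on simulated data had been seen. DESeq2 1.42.0 was an alternative. Exact permutation tests, which did not keep the pairing by Set, used SciPy 1.17.1 (Python 3.11.15). P-values measure only the spread between these samples.

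Named genes were the 12 largest rises and 12 largest falls with an adjusted p under 0.05, 30 CPM in the higher group and the same sign in all 3 Sets, outside the member rule and not named by a clone; CRX; up to 4 members of each list by smallest p; and the 5 largest called differences from rods in each direction at 30 CPM. The description against rods took 12 genes in each direction at 50 CPM. THRB, GNAT2, PDE6C, GUCA1B, FTH1, and the cone against rod values of HMGCS1 were added after their values were seen. Gene positions are from GENCODE 29. A few genes of the lists are counted in them but are not reported here by name.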

Additional observations from a re-analysis of the deposited data

Results flagged for a closer look

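Of the 25 genes whose response differed between cones and rods, the 5 largest differences in each direction at 30 CPM or more are given here; no cause was tested. The response in cones was more positive for LHFPL6 (1.18 on the log2 scale), EIF2AK3 (1.14), GEM (0.94), LMO1 (0.93) and ABLIM1 (0.86). It was more negative for NPSR1-AS1 (-2.63), ACAT2 (-1.29), MAP2 (-1.20), EYA2 (-1.16) and MCF2L2 (-1.11). Among all genes tested, 0.151% had a called difference.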

How the results depend on the processing

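The sign of the 24 named genes was part of their selection, so its persistence shows nothing. Their changes moved by over 1.5 times for NAV3 (-2.23 to -0.084 thinned, -1.34 without mixed cells), LHX3 (1.84 to 0.96 under both) and SOCS3 (2.21 to 1.23 without mixed cells). Against 68 genes, edgeR with no replicate block called 0 (455 at an unadjusted p under 0.05), so the result depends on pairing the libraries by Set. DESeq2 called 182 with the Set and 14 with no replicate block. The legacy edgeR fit, added after seeing the data, called 702, and no filter on low counts 476. Cones thinned to 1000 UMIs gave 0 (756 unadjusted, 9196 tested), an equal 26 cones per library 13 (5889 tested), and leaving out mixed cells 24. Of the named genes, 7 of 23 measured were still called without mixed cells. Leaving out 1 Set gave 0 to 113, with no named gene called without Set 1 or without Set 3. The cause of these moves was not tested, apart from the fewer genes or samples that some settings hold. The difference from rods (25 genes) moved to 7 with thinned cells, 50 with the legacy fit, 16 with no filter and 15 without mixed cells, and to 1 to 14 with 1 Set left out. The share of cones (-0.527 points) ranged from -1.21 to 0.758 with 1 Set left out, and turned positive without Set 2. The share of cones with OPN1SW differed by 0.068 points at 1000 UMIs, -0.593 at 2000 and -0.027 unthinned. At 2000 UMIs the difference was -0.224 for GNAT2 and -1.12 for PDE6C. The 26 cones of transplanted library 2 limit the precision of low genes there.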

Other observations

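SYTL3, a gene of vesicle transport outside the rule for named genes and chosen after its values were seen, was called in cones, but 786 of its UMIs in transplanted library 2 came from 1 of the 26 cones. Its change there describes that cell and not the library.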
